A study of Mus musculus with 6 samples.

Results

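The genes described here encode the mitochondrial and peroxisomal oxidation of fatty acids, with the regulators that act on it. They are 35 genes chosen by name, of which 33 had an annotated transcript cluster (a set of probes that corresponds to roughly 1 gene) among the 22206 clusters tested. Esrra, an orphan nuclear receptor gene, and Etfb, the beta subunit gene of the electron transfer flavoprotein, are not analysed here because no cluster carries their symbol in the annotation used. Each of the 33 had 1 cluster, so no choice between clusters was needed. They comprised 18 mitochondrial genes, 10 peroxisomal genes, 2 genes of cytosolic thioesterases and 3 regulators.

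RNA came from renal tubular epithelial cells of Mus musculus, obtained by digesting kidneys with type 2 collagenase after ischemia of 30 min and reperfusion for 24 h, an acute kidney injury that both arms share. The vehicle arm had 3 samples and the PT2385 arm 3, with 1 array each. PT2385 blocks the pairing of the hypoxia-inducible factor HIF-2α with its partner ARNT. The dose of 10 mg/kg was given 4 times, the first 16 h ahead of surgery and the others 1, 8 and 20 h later. The protocol spells the injected compound PT2384. The labels give no strain, age or sex and do not say whether each array is a separate animal. The p-values set each difference against the spread of arrays within arms, and that spread may be technical. No uninjured kidney was analysed here, so the comparison is between treatments after injury.

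Fatty acids are the main fuel of the proximal tubule. Long chains are coupled to carnitine to cross the mitochondrial membranes, and each turn of β-oxidation then runs through an acyl-CoA dehydrogenase, a hydratase, a hydroxyacyl-CoA dehydrogenase and a thiolase. Peroxisomes shorten very long, branched and dicarboxylic acids by a parallel route whose first step makes hydrogen peroxide, which catalase breaks down. The nuclear receptor PPARα, with the coactivator PGC-1α and the receptor ERRα, is the textbook activator of both routes. Loss of fatty acid oxidation in tubular cells is a known feature of kidney injury.

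Signals are log2 values, and a difference is the PT2385 mean minus the vehicle mean, so -1 is a halving of the signal. The mean signals of the 33 genes lay between 8.12 and 12.68, all above the highest mean of the background control rows (7.37). Both arms also differed in Y-linked genes: Eif2s3y had 9.09, 9.24 and 9.28 with vehicle and 3.27, 3.04 and 3.34 with PT2385. The PT2385 values lie below the median of the background control rows (3.60). The labels do not record sex, and for every difference given here an effect of PT2385 and a difference in sex cannot be told apart.

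No fatty acid oxidation gene passed the threshold of an adjusted p of 0.05 (limma, Benjamini-Hochberg over all clusters), although 25 of 33 had lower mean signals in the PT2385 arm. Over all clusters 0.829% passed, 0.495% as lower and 0.333% as higher, and 46.5% had a difference below 0. The smallest adjusted p values belonged to Ppargc1a, the PGC-1α gene, with a higher signal (0.0534), and to Ehhadh, the peroxisomal bifunctional enzyme gene, with a lower signal (0.0603). At an unadjusted p under 0.05, 13 of the 33 were lower, against 6.54% of all clusters, and 1 was higher, against 7.94%. The median difference was -0.24, against 0.016 over all clusters. Bright clusters differed more often downwards: among the 4962 clusters with a mean signal of at least 8.12, 11.4% were lower at that p, 62.7% lay below 0 and the median was -0.052. In simulated arrays of this size the fit recovered 20% of clusters changed by 0.5 and 86% of those changed by 1. Those clusters were picked at random and varied independently. The 33 genes spread more within the arms than all clusters do, so these shares need not hold for them.

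The count of 13 was 8 without vehicle replicate 2 (5.02% of all clusters) and 8 without PT2385 replicate 2 (4.11%). Over the omission of each array in turn it ran from 8 to 16. The number of genes with a difference below 0 was 28 with each array centred on its median, where 56.7% of all clusters lay below 0. It was 24 with quantile or cyclic loess normalization, where 48.7% and 50.1% of all clusters did. The groups did not overlap for 12 of the 33 genes, where 11 were lower and 1 was higher in the PT2385 arm. Over all clusters, 20.7% of clusters had groups that did not overlap, 9.13% lower and 11.6% higher. Among the 4962 bright clusters these shares were 17% lower and 8.32% higher.

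**Figure D1:**
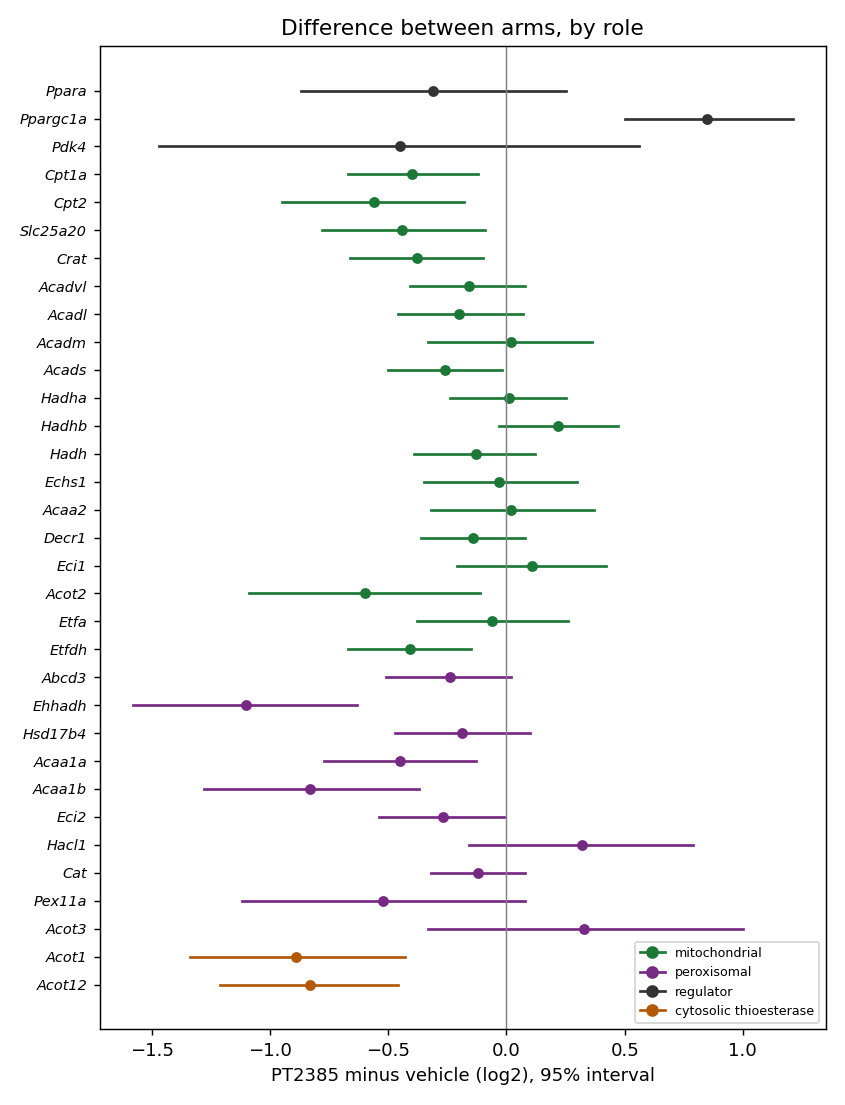
Difference in log2 signal, PT2385 minus vehicle, for the 33 genes by role. Points are differences of 3 against 3 arrays and lines are 95% intervals from the limma fit. Ppargc1a lies farthest to the right (0.85) and Ehhadh farthest to the left (-1.10). Of the 33 points 25 lie below 0, against 46.5% of all clusters. With each array centred on its median these were 28 and 56.7%.

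Among the regulators, Ppargc1a was the 1 gene of the 33 with a higher signal at an unadjusted p under 0.05. Its product, PGC-1α, coactivates the transcription of mitochondrial and fatty acid oxidation genes. The signal was 9.83, 9.63 and 9.77 with vehicle and 10.92, 10.59 and 10.29 with PT2385. Every PT2385 array lay above every vehicle array. The difference was 0.85 (SE 0.16, adjusted p = 0.0534), a ratio of 1.81. The adjusted p was 0.0218 without PT2385 replicate 3, and it ran from 0.0171 to 0.233 over 16 alternatives.

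Ppara, the gene of the lipid-sensing receptor PPARα, had 8.66, 9.51 and 8.85 with vehicle and 8.72, 8.32 and 9.07 with PT2385. The groups overlapped, and the difference was -0.31 (SE 0.25, 95% interval -0.87 to 0.25, adjusted p = 0.596). Pdk4 encodes a kinase that inhibits pyruvate dehydrogenase and so spares glucose while fat is burned. It was the gene with the widest spread, with 9.0, 9.70 and 10.01 with vehicle and 8.21, 8.99 and 10.15 with PT2385. PT2385 replicates 1 and 3 were the lowest and the highest of all 6 arrays for this gene. Its difference of -0.45 (SE 0.45, adjusted p = 0.674) was 0.0027 without PT2385 replicate 1.

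The 4 carnitine shuttle genes among the 33 all had lower signals in the PT2385 arm, each at an unadjusted p under 0.05. Over 16 alternatives that p held in all 16 for Cpt1a and for Cpt2, in 14 for Crat and in 12 for Slc25a20. Cpt1b and Cpt1c, outside the 33, had higher signals and are given below. Of all clusters 6.54% were lower at that p, and of the 4962 bright clusters 11.4%. Differences of the 4 genes ran from -0.56 to -0.38, and none passed the adjusted threshold. Cpt1a, the carnitine palmitoyltransferase gene of the outer membrane and the main control point of entry, had 10.23, 10.57 and 10.41 with vehicle. With PT2385 it had 10.05, 9.86 and 10.10, all below the vehicle arrays, a difference of -0.40 (SE 0.12, adjusted p = 0.203). Crat, the carnitine acetyltransferase gene, had 9.02, 9.41 and 9.19 against 8.95, 8.73 and 8.79. Its groups did not overlap either, with a difference of -0.38 (SE 0.12, adjusted p = 0.227).

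Cpt2, the inner-membrane transferase gene, had 8.69, 9.22 and 9.27 with vehicle and 8.36, 8.44 and 8.69 with PT2385. Slc25a20, the carnitine-acylcarnitine carrier gene, had 9.50, 9.94 and 9.81 against 9.14, 9.23 and 9.56. In both genes the groups overlapped because vehicle replicate 1 was low and PT2385 replicate 3 was high. Their differences were -0.56 (SE 0.17, adjusted p = 0.199) for Cpt2 and -0.44 (SE 0.15, adjusted p = 0.249) for Slc25a20.

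The enzymes of the oxidation cycle itself had differences nearer to 0. Of the 4 acyl-CoA dehydrogenase genes, Acads, which acts on short chains, had 8.13, 8.31 and 8.31 with vehicle and 8.06, 7.87 and 8.05 with PT2385, without overlap. Its difference was -0.26 (SE 0.10, adjusted p = 0.314). Acadvl for very long chains (-0.16, SE 0.11) and Acadl for long chains (-0.20, SE 0.12) had overlapping groups. Acadm, the medium-chain gene, had a difference of 0.02 (SE 0.15, 95% interval -0.33 to 0.36), which became -0.03 with arrays centred on their median.

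None of the 5 genes of the later steps had an unadjusted p under 0.05, and their differences ran from -0.13 to 0.22. Hadha and Hadhb encode the alpha and beta subunits of the mitochondrial trifunctional protein, which carries out the last 3 reactions of the cycle on long chains. Hadha had 10.64, 10.74 and 10.96 with vehicle and 10.79, 10.79 and 10.80 with PT2385. The PT2385 arrays fell inside the vehicle range, with a difference of 0.01 (SE 0.11, 95% interval -0.24 to 0.25) that became -0.04 with arrays centred on their median. Hadhb had 9.91, 9.96 and 10.12 against 10.35, 10.10 and 10.20, and PT2385 replicate 2 lay within the vehicle range. Its difference was 0.22 (SE 0.11, 95% interval -0.03 to 0.47, adjusted p = 0.396). A difference between these genes and those of the shuttle was not tested.

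Hadha and Hadhb are read in opposite directions from starts at 30154980 and 30155253 on chromosome 5, with 272 bases between them (RefSeq, GRCm38.p6). The 250 bases before the Hadhb start are shown because 228 bases of the 2 genes' promoter windows are the same stretch. They lie at chr5:30155003-30155252 on the plus strand, and capitals mark GC boxes (GGGCGG).
Hadhb: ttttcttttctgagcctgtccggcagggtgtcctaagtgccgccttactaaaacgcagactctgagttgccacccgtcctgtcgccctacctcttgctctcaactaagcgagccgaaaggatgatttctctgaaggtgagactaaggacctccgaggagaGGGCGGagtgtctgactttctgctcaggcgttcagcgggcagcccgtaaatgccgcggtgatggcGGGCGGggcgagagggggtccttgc

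The other 3 genes of the later steps also had overlapping groups. Echs1, the short-chain enoyl-CoA hydratase gene, had -0.03 (SE 0.14, 95% interval -0.35 to 0.30), which became 0.01 with quantile normalization and 0.02 with cyclic loess. Hadh, the hydroxyacyl-CoA dehydrogenase gene, had -0.13 (SE 0.11), and Acaa2, the mitochondrial thiolase gene, had 0.02 (SE 0.15) or -0.02 with centred arrays. For Acadm, Echs1, Acaa2 and Etfa, PT2385 replicate 1 was the highest of all 6 arrays. Its signals were 10.32, 9.99, 10.91 and 10.93 for these genes, while both other PT2385 arrays lay below the vehicle mean. The auxiliary enzymes for unsaturated fatty acids were Decr1 and Eci1. Decr1 had 9.78, 9.81 and 9.90 with vehicle against 9.74, 9.57 and 9.76, with no overlap and a difference of -0.14 (SE 0.10). Eci1 had 0.11 (SE 0.14), which became -0.04 without vehicle replicate 1.

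Electrons from the acyl-CoA dehydrogenases pass through the electron transfer flavoprotein to its membrane oxidoreductase, the product of Etfdh. Etfdh had 10.28, 10.51 and 10.50 with vehicle and 10.13, 9.87 and 10.07 with PT2385. All PT2385 arrays lay below all vehicle arrays, and the difference was -0.41 (SE 0.11, adjusted p = 0.180), the lowest adjusted p among the mitochondrial genes. Etfa, the alpha subunit gene of the flavoprotein, had a difference of -0.06 (SE 0.14, 95% interval -0.38 to 0.26). Over all 18 mitochondrial genes 7 were lower and 0 higher at an unadjusted p under 0.05, with a median difference of -0.15. At that p, 6.54% of all clusters were lower and 7.94% higher, and 11.4% and 5.4% of the 4962 bright clusters.

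**Figure D2:**
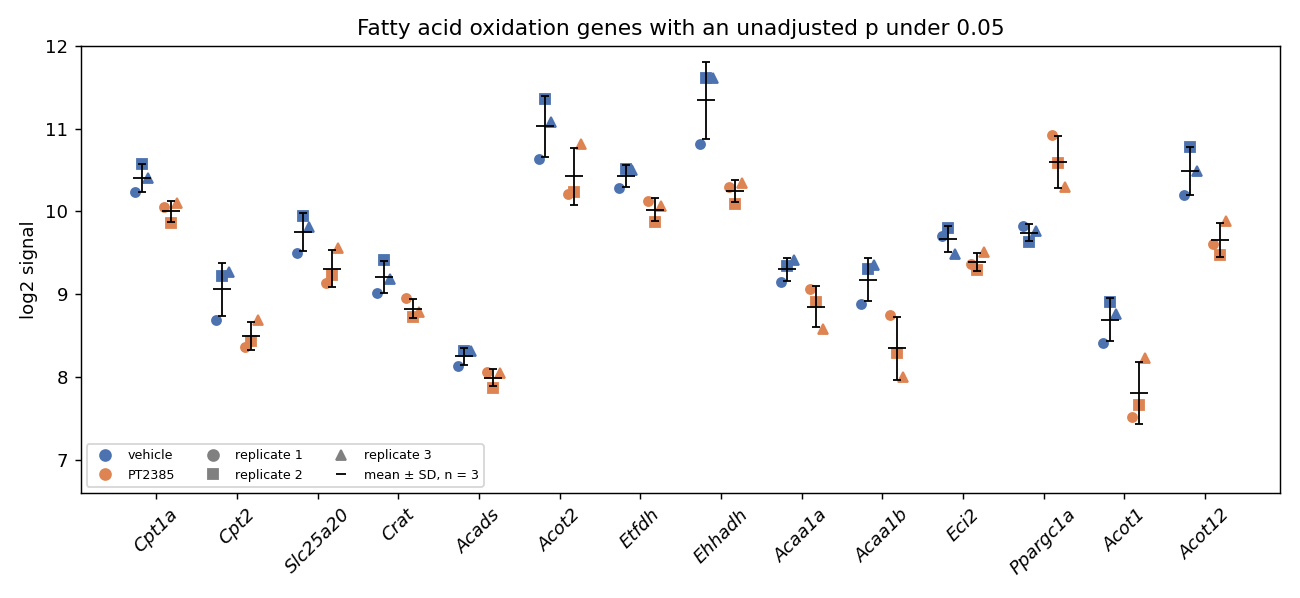
Log2 signal on each array for the 14 genes with an unadjusted p under 0.05. Colours mark the arms, marker shapes the replicates, and bars the mean ± SD (n = 3). Ehhadh shows vehicle replicate 1 (10.81) well below the other vehicle arrays (11.61 each), and Ppargc1a is the gene with the PT2385 arrays above.

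In the peroxisome, Ehhadh had the largest difference of all 33 genes. It encodes the bifunctional enzyme that hydrates and dehydrogenates the acyl-CoA, with a part in the breakdown of dicarboxylic acids, and is a classic PPARα target. The signal was 10.81, 11.61 and 11.61 with vehicle and 10.30, 10.09 and 10.34 with PT2385. The groups did not overlap, and vehicle replicate 1 lay between the other vehicle arrays and the PT2385 arrays. The difference was -1.10 (SE 0.21, 95% interval -1.58 to -0.63, adjusted p = 0.0603), which is 2.15-fold lower. The adjusted p was 0.00725 without vehicle replicate 1 and ran up to 0.265, without PT2385 replicate 2.

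The 150 bases before the Ehhadh start, the gene with the largest difference, lie at chr16:21787835-21787984 on the minus strand (RefSeq, GRCm38.p6). Capitals mark GC boxes, GGGCGG or its complement.
Ehhadh: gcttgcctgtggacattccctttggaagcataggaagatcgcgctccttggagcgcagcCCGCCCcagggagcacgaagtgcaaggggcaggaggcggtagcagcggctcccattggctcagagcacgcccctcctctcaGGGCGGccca

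The peroxisomal thiolase has 2 gene copies in the mouse, Acaa1a and Acaa1b, both on chromosome 9. Acaa1b had 8.88, 9.30 and 9.35 with vehicle and 8.75, 8.29 and 8.00 with PT2385. Acaa1a had 9.15, 9.34 and 9.41 against 9.06, 8.91 and 8.58. In both copies the groups did not overlap and PT2385 replicate 3 was the lowest array. The differences were -0.83 (SE 0.20, adjusted p = 0.128) for Acaa1b and -0.45 (SE 0.14, adjusted p = 0.212) for Acaa1a. For Acaa1b the adjusted p was 0.0418 without PT2385 replicate 1 and 0.157 to 0.398 without any other single array. The copies are closely related, and how far each cluster also reads the other copy was not tested.

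Hsd17b4, the bifunctional enzyme gene of the branched-chain and bile acid route, had a difference of -0.19 (SE 0.13, 95% interval -0.47 to 0.10). Eci2, an isomerase gene, had 9.70, 9.80 and 9.49 with vehicle against 9.37, 9.29 and 9.51, with overlapping groups and a difference of -0.27 (SE 0.12, adjusted p = 0.330). Hacl1, a lyase gene of the α-oxidation of branched chains, had 0.32 (SE 0.21) and was highest in PT2385 replicate 1 (9.72). Abcd3, a peroxisomal fatty acid transporter gene, had -0.24 (SE 0.12). Cat, the catalase gene, had 12.70, 12.72 and 12.78 with vehicle and 12.67, 12.58 and 12.60 with PT2385. Its groups did not overlap but lay close, with a difference of -0.12 (SE 0.09, adjusted p = 0.577). Pex11a, a peroxisome division gene induced by PPARα ligands, had 8.83, 9.69 and 9.12 against 8.30, 8.57 and 9.20, with overlap and a difference of -0.52 (SE 0.26). Over the 10 peroxisomal genes 4 were lower and 0 higher at an unadjusted p under 0.05, with a median of -0.26. The shares at that p were 6.54% lower and 7.94% higher over all clusters, and 11.4% and 5.4% over the bright clusters.

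Acyl-CoA thioesterases release free fatty acids from coenzyme A. Acot12, a cytosolic acetyl-CoA hydrolase gene, had 10.20, 10.78 and 10.49 with vehicle and 9.61, 9.48 and 9.88 with PT2385. The groups did not overlap, and the difference was -0.83 (SE 0.16, adjusted p = 0.0721). Acot1, a cytosolic long-chain thioesterase gene, had 8.41, 8.91 and 8.76 against 7.52, 7.66 and 8.23, again without overlap. Its difference was -0.89 (SE 0.20, adjusted p = 0.104), and the adjusted p was 0.0296 without PT2385 replicate 3 and 0.142 to 0.37 without any other single array.

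Acot1 sits in a row of related genes on chromosome 12, in the RefSeq order Acot2, Acot1, Acot4, Acot3, Acot5 and Acot6. Acot2, the mitochondrial thioesterase gene, had 10.64, 11.36 and 11.08 with vehicle and 10.21, 10.24 and 10.82 with PT2385, a difference of -0.60 (SE 0.22, adjusted p = 0.263). Acot3, a peroxisomal thioesterase gene, had 8.07, 8.30 and 8.43 against 9.35, 8.42 and 8.02. Acot3 thus ran from the lowest to the highest of the 6 arrays within the PT2385 arm, and its difference of 0.33 (SE 0.29) became -0.04 without PT2385 replicate 1. The peroxisomal Acot4 had -0.51 (SE 0.15) and Acot6 had -0.33 (SE 0.11), both with groups that did not overlap. Acot5 was dim, with means of 3.46 and 3.17. These genes are closely related, and signal shared between their probes was not tested.

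**Figure D3:**
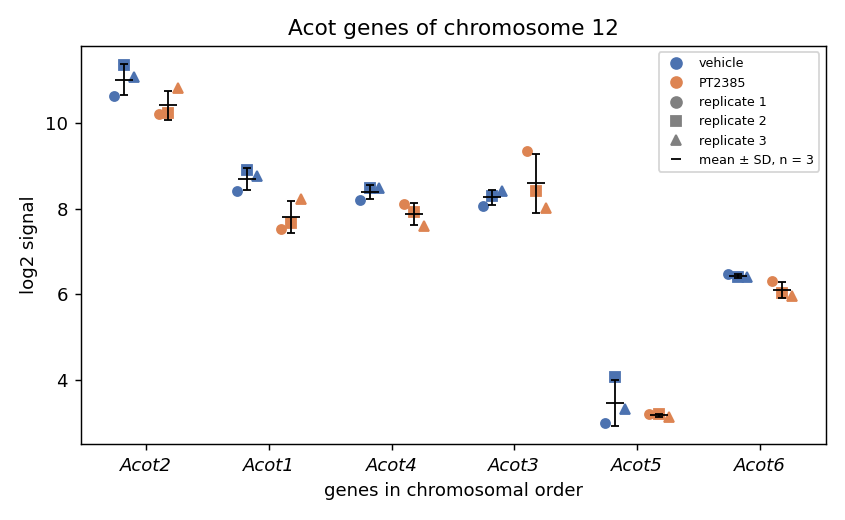
Log2 signal on each array of the 6 Acot genes of chromosome 12, in chromosomal order. Colours mark the arms, shapes the replicates, and bars the mean ± SD (n = 3). Acot1, Acot4 and Acot6 have all PT2385 arrays below all vehicle arrays. Acot3 has PT2385 replicate 1 (9.35) above the vehicle arrays and replicate 3 (8.02) below them.

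RefSeq promoter windows, from 250 bases before to 50 after the start (GRCm38.p6), were found for 31 of the 35 genes. The direct repeat bound by PPARα with its partner RXR was searched on both strands as AGGTCA repeated in the same direction with 1 base between the copies. A looser search used AGGNCA for each copy. Both were in 0 of these windows. Of all 32851 mouse windows, 0.0396% held the strict form and 0.381% the looser one. The element of the ERRα receptor, TCAAGGTCA, was also in 0, against 0.423% of all windows. The half-site AGGTCA, which is contained in the strict repeat and in that element, was in the windows of 7 genes (Cat, Acadm, Echs1, Acadvl, Acot3, Acot12 and Cpt1a), or 24.2% of their windows against 16.3% of all. A GC box (GGGCGG) was in those of 22 genes, or 66.7% of windows against 35.7% of all. These are matches of letters in a short window and not measured binding.

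Of the genes with the half-site, Cpt1a, Acot12 and Cat had arms that did not overlap, and 60 bases of each are shown. The arms overlapped for Acadm, Echs1, Acadvl and Acot3. Over the 33 genes, 11 were lower and 1 higher without overlap, against 20.7% of all clusters in either direction. A link between the half-site and the signal was not tested. Capitals mark the half-site, AGGTCA or its complement TGACCT. The stretches lie at chr19:3323180-3323239 and chr13:91741384-91741443 on the plus strand and at chr2:103485325-103485384 on the minus strand (GRCm38.p6).
Cpt1a: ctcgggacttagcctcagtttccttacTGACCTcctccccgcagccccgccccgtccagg
Acot12: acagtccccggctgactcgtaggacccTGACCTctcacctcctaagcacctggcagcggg
Cat: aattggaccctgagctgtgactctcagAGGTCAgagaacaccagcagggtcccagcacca

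The order of the arrays within each arm was alike for many of the genes. How often the same order occurred over all clusters was not counted. Vehicle replicate 1 was the lowest vehicle array for 28 of the 33 genes, the exceptions being Hadh, Abcd3, Eci2, Hacl1 and Ppargc1a. Among the PT2385 arrays, replicate 2 was the lowest for 19 genes (including Hadha and Acaa2, which are tied at the decimals printed) and the highest for 0. Replicate 3 was the highest for 18 genes, among them Cpt2, Slc25a20, Acot1, Acot2, Pex11a and Pdk4, and replicate 1 for the other 15, among them Acadm, Acaa2, Acaa1b, Hacl1, Acot3 and Ppargc1a. The largest gaps between these 2 replicates were 1.94 for Pdk4, with replicate 3 higher, and 1.33 for Acot3, with replicate 1 higher. The median SD within the PT2385 arm was 0.186 over the 33 genes and 0.129 over all clusters, and in the vehicle arm 0.165 and 0.128.

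**Figure D4:**
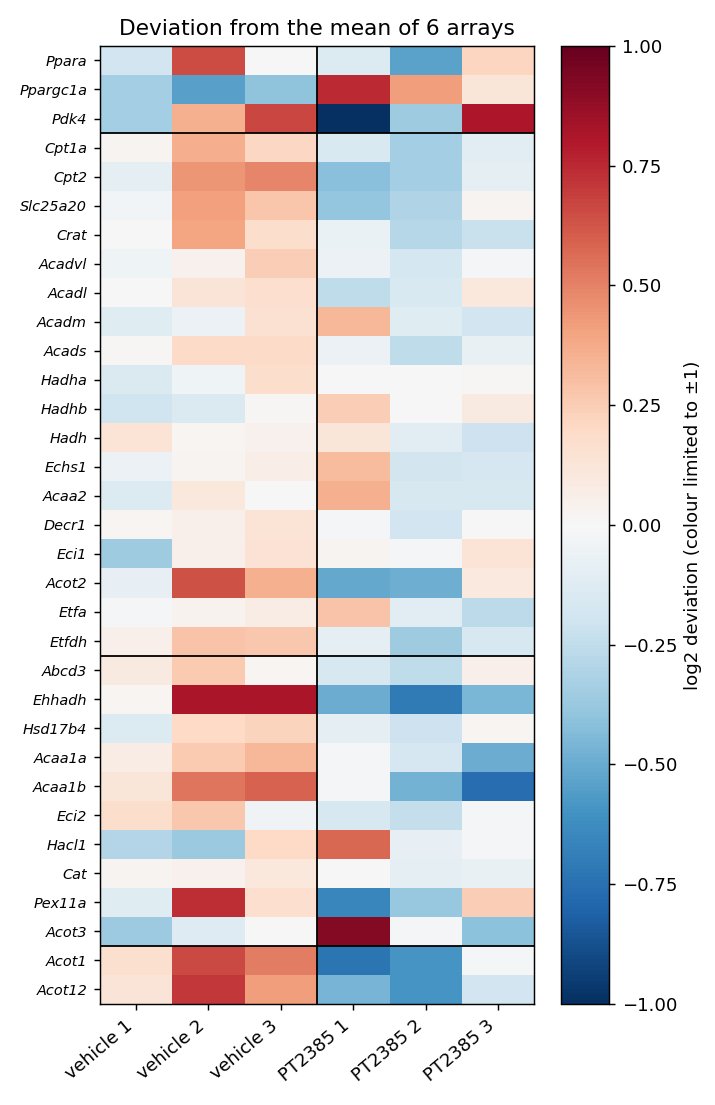
Log2 deviation of each gene from its mean over the 6 arrays, with genes in rows by role (lines part regulators, mitochondrial, peroxisomal and cytosolic genes) and arrays in columns. Colours are limited to ±1. Vehicle replicates 2 and 3 are mostly above the mean, and PT2385 replicate 1 is low for Pdk4 (8.21) and high for Acot3 (9.35).

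Of 127 other genes of fatty acid handling listed by role, 111 were measured and 2 passed the threshold. Cd36, a fatty acid uptake receptor gene, had 10.93, 10.78 and 11.06 with vehicle and 9.22, 8.53 and 8.48 with PT2385. It fell by 2.18 (SE 0.19, adjusted p = 0.00186), with groups far apart, and passed in all 16 alternatives. It was the 1 gene past the threshold of 18 measured for uptake, binding and activation. Cyp4a14, a fatty acid ω-hydroxylase gene induced through PPARα, had 10.09, 10.76 and 11.22 against 12.18, 12.07 and 12.08. It rose by 1.42 (SE 0.24, adjusted p = 0.0431), the 1 gene past the threshold among 29 measured other regulators and PPARα-linked targets. Its call was lost without vehicle replicate 2 (adjusted p = 0.141) or any 1 PT2385 array (0.0806 to 0.199), and with a trend and robust variance prior (0.057).

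Among 42 measured other peroxisomal genes 0 passed, while 10 were lower and 0 higher at an unadjusted p under 0.05, against 6.54% and 7.94% of all clusters, with a median of -0.14. The smallest p values belonged to Agps, an enzyme gene of ether lipid synthesis (-0.47, SE 0.09), and Pxmp4, a peroxisomal membrane protein gene (-0.59, SE 0.15). Of 23 measured other mitochondrial oxidation genes 0 passed, with 2 higher and 0 lower at that p and a median of -0.06. These 2 of 23 are a share near the 7.94% of all clusters. They were Cpt1b (0.59, SE 0.16) and Cpt1c (0.36, SE 0.11), the other genes of the carnitine palmitoyltransferase 1 family. Their means were 7.02 and 7.61 for Cpt1b and 5.41 and 5.77 for Cpt1c in the vehicle and PT2385 arms. Those of Cpt1c and the vehicle mean of Cpt1b lie between the lowest (2.45) and highest (7.37) means of the background control rows.

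Cell type markers also differed between the arms. Mean signals over 8 proximal tubule S1 and S2 markers were 10.91 to 11.22 with vehicle and 10.47 to 11.55 with PT2385, overlapping, and Slc22a6 fell (-0.97, adjusted p = 0.00572). Of 5 measured S3 markers Slc7a13 fell (-4.09, adjusted p = 5.41e-05) and Slc22a13 rose (2.41, adjusted p = 0.0385), with list means of 9.10 to 9.77 and 8.05 to 8.95. All 10 loop and distal tubule markers had higher signals in the PT2385 arm (9.01 to 10.07 against 8.29 to 8.40), as had all 10 collecting duct markers (8.48 to 8.69 against 8.00 to 8.18). Of these, Cldn19 of the loop and distal list passed the threshold (1.24, adjusted p = 0.0259), and 0 of the collecting duct list. The 5 neutrophil markers had lower mean signals (4.81 to 5.79 against 5.99 to 6.26), and Csf3r fell (-1.04, adjusted p = 0.0326). These neutrophil list means lie below the highest mean of the background control rows (7.37), and the arms overlapped for Cxcr2 and Retnlg.

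The remaining lists overlapped between the arms. The 9 macrophage markers had 6.67 to 6.91 against 6.89 to 7.21, of which Lyz2 fell (-1.19, adjusted p = 0.0202). Of these 9, 5 had higher and 4 lower mean signals in the PT2385 arm, with a median difference of 0.11. The 7 endothelial markers had 8.29 to 8.52 against 8.13 to 8.59. Means over 7 fibroblast, 4 podocyte and 7 lymphocyte markers were 8.42 to 8.54, 7.62 to 7.78 and 4.66 to 4.85 against 8.10 to 8.52, 7.51 to 7.67 and 4.59 to 4.83. The 6 markers of injured tubule had 9.70 to 10.78 against 10.48 to 10.80. The isolates thus carried signal of tubular markers and also of endothelial and fibroblast markers. The part of these markers in the lower signals of the oxidation genes was not tested, and fewer cells of a type and less RNA per cell cannot be told apart in such bulk samples.

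**Figure D5:**
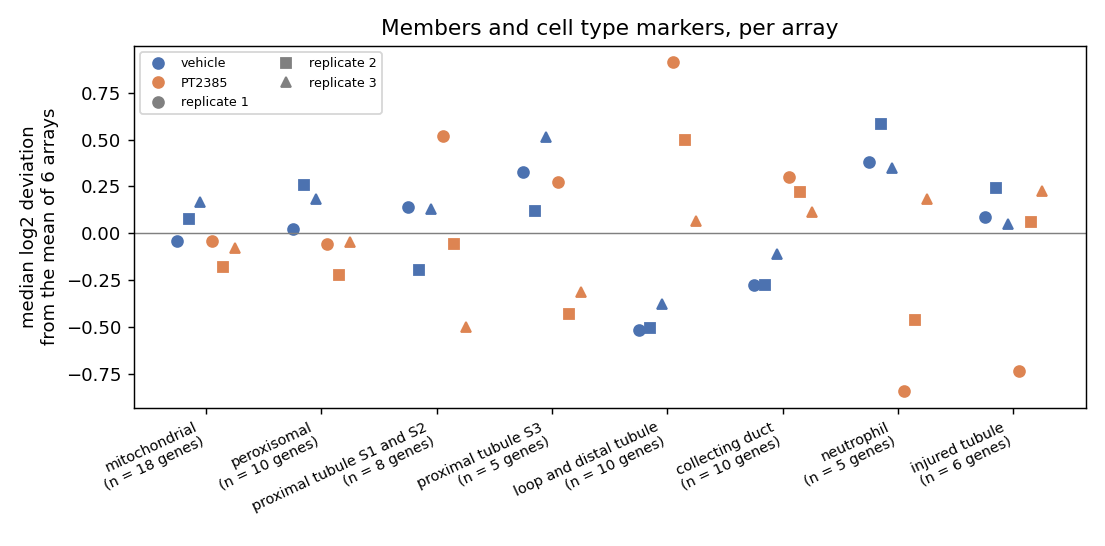
Median log2 deviation from the mean of the 6 arrays for the mitochondrial and peroxisomal genes and for marker lists, 1 point per array. Colours mark the arms and shapes the replicates. All vehicle points lie below all PT2385 points for loop and distal tubule and for collecting duct markers. They lie above all PT2385 points for neutrophil markers and for the peroxisomal genes (0.0236 to 0.26 against -0.222 to -0.0476). The points of the mitochondrial genes overlap between the arms and span -0.178 to 0.169.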

How the data were processed

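The deposited values are log2 signals, 1 per transcript cluster and array, from Affymetrix whole-transcript arrays. The submitters' processing notes name Transcriptome Analysis Console. How signals were summarised and normalized is not given in the sources used here. Array medians lay between 6.20 and 6.25. Of 28846 rows, 6640 control rows were left out. No detection filter was used. Symbols came from the platform annotation (19572 clusters with 1 symbol, 2634 with none).

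The arms were compared over all 22206 clusters with limma 3.58.1 in R 4.3.3 (lmFit and eBayes, 2-sided, treatment as the only term, Benjamini-Hochberg adjustment). The genes, lists and alternatives were chosen with earlier results of these data known. Values per array were given for genes with an unadjusted p under 0.05, for those without overlap that the text turns on, for the regulators and for the related gene copies. Those of Hadha, Hadhb and Pex11a, and the values of Acot4, Acot5 and Acot6, were added after they were seen. From other pathway and marker lists, genes past the threshold were named, or else, for pathway lists, the 2 with the smallest p. Tested on simulated data, the fit made 3 false calls. The arrays' number limits the precision.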

Additional observations from a re-analysis of the deposited data

How the results depend on the processing

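Alternatives were the replicate block, 3 other normalizations, 2 filters on clusters with dim signals, the brightest cluster of each gene, a trend and robust variance prior, array weights, omission of the X and Y chromosomes and omission of each array. Each gene had 1 cluster, so the planned use of its other clusters gave no value. The fatty acid oxidation genes past the threshold numbered 0, and 2 with the replicate block (Ppargc1a, adjusted p = 0.0405, and Acot1, 0.0497), 1 with quantile normalization, 1 above the median cluster, 2 with the trend and robust fit, 5 with array weights (Ehhadh, Acaa1b, Ppargc1a, Acot1 and Acot12) and 0 to 2 without single arrays. With the replicate block 178 of all clusters passed. Deviations of same-numbered samples correlated at 0.214, 0.0717 and -0.0581, and those of differently numbered samples at -0.325 to 0.342. With 3 samples per arm these values cannot decide whether equal numbers mark a shared block. All clusters called numbered 184, 456 with array weights and 42 to 179 without single arrays. Centring each array gave 57 higher of 192 calls, against 74 of 184. Other pathway genes called numbered 2, 1 with the trend and robust fit and 1 to 3 without single arrays. The count of genes lower at an unadjusted p, chosen after seeing the data, ran from 8 to 16 without single arrays. Median differences without single arrays ran from -0.20 to -0.11 (mitochondrial), -0.33 to -0.19 (peroxisomal) and -0.49 to 0.0027 (regulators).

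Directions turned for 8 genes. Values were -0.03, -0.04 and -0.02 for Acadm, Hadha and Acaa2 with centred arrays, -0.05 and -0.07 for Acadm and Acaa2 with array weights, and 0.01 and 0.02 for Echs1 with quantile and loess normalization. Without single arrays, values ran from -0.14 to 0.11 for Acadm, -0.06 to 0.10 for Hadha, -0.19 to 0.06 for Echs1, -0.15 to 0.11 for Acaa2, -0.04 to 0.20 for Eci1, -0.22 to 0.05 for Etfa, -0.04 to 0.62 for Acot3 and -0.97 to 0.0027 for Pdk4. The causes were not tested.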
